A study of Caenorhabditis elegans with 2 samples.

Results

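The exonic peaks are the binding regions of NHR-47-GFP whose summit, the position of highest signal, lay in an exon of a protein-coding gene and away from every annotated promoter. A promoter was taken as a window around the 5′ end of each protein-coding gene in Ensembl release 115, reaching 500 bp upstream and 200 bp downstream. Of the 5357 peaks in the authors' thresholded list, 220 (4.11%) met the rule, which used positions and no signal beyond the authors' threshold. They lay in 213 host genes. The other summits were counted as promoter (2094), intronic (1216) or intergenic (1827).

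The study mapped the DNA bound by NHR-47, a nuclear hormone receptor of the worm Caenorhabditis elegans, with ChIP-seq. In this assay an antibody pulls down a protein with the chromatin it binds, and the recovered DNA is sequenced. The animals were whole hermaphrodite L1 larvae of strain OP481, collected 6 h after larvae had been synchronized by bleaching and starvation. They carried the transgene wgIs481, which adds NHR-47 fused at its C-terminus to GFP and FLAG. Both samples shared the unc-119(tm4063) III mutant background. There were 2 biological replicates of 1 group, so no comparison between conditions and no p-value is given. The labels describe an anti-GFP immunoprecipitation in one field and give nhr-47 as the antibody in another. Because whole animals were used, more cells bound and stronger binding per cell cannot be told apart. The tagged protein stands in for the native one, and the cells that express it are not given by the labels. The gene nhr-47 itself, at V:5505253-5509956 on the plus strand, held 0 of the 5357 thresholded peaks and 0 of the 30000 regions of the relaxed pooled list. The signal of a peak is the authors' own score from the peak caller. Read counts were not analysed here and library depth is unknown. The 95% intervals on shares and densities are exact and cover counting error only.

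Nuclear hormone receptors are zinc finger transcription factors that often respond to small lipophilic ligands, and the family is much expanded in nematodes. Many members bind DNA elements built from the half-site AGGTCA or a variant of it. Exons hold the coding sequence together with the untranslated regions (UTRs) that flank it in the mRNA, and an exon of one transcript can lie at the start of another transcript of the same gene. Many worm messages are also trans-spliced to a short leader, so that an annotated 5′ end need not be the place where transcription begins.

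The 7 sequences printed here are centred on summits and stand for the kinds of site that the results turn on. They are reference sequence (WBcel235, the ce11 build), written 5′ to 3′ on the strand of the host gene, with 14 bases on each side of a summit in a UTR and 50 on each side of one in coding sequence. Capitals mark 1 match in a sequence that is shown for it, to GACGCA, to the half-site AGGTCA (written TGACCT where it lies on the other strand) or to the polyadenylation signal AATAAA. In ril-2 an AATAAA on the other strand overlaps the capitals and is left in lower case. The first pair are the strongest sites, in the 5′ UTR of C34C12.2 (III:3456415-3456443, plus strand) and in coding sequence of pks-1 (X:5429494-5429594, plus strand). The next pair carry GACGCA, in the 3′ UTR of C05D11.8 (III:6421211-6421239, minus strand) and in the 5′ UTR of din-1 (II:11620022-11620050, minus strand). Coding sequence of ril-2 (V:12596985-12597085, minus strand) holds the receptor half-site. The 3′ UTR of hsp-12.3 (IV:9444800-9444828, minus strand) shows a summit beside the end of a gene. Coding sequence of unc-33 (IV:3519536-3519636, plus strand) shows one just upstream of another start of the same gene.
C34C12.2: tttttgcgcgatgcaagcgcgctccaccg
pks-1: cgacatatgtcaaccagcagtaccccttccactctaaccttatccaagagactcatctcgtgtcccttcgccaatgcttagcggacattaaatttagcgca
C05D11.8: acgccgtggaGACGCAgacagtgagggcc
din-1: cgctgttgttttgggagggcgcGACGCAc
ril-2: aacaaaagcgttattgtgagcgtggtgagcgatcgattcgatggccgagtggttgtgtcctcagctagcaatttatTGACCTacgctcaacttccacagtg
hsp-12.3: tttgacaactgccgtttacAATAAAtgaa
unc-33: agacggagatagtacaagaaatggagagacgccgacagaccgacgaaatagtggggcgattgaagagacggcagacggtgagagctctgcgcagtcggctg

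Peaks were sparse in exons as a whole but dense in their 5′ UTR portion. Exonic sequence outside promoter windows covered 25.4 Mb, or 25.3% of the genome, and held 8.67 peaks per Mb. Promoter windows held 159.7 peaks per Mb, intergenic sequence 60.9, introns 38.3 and the whole genome 53.4. Within exons the summits divided into 93 in coding sequence, 65 in 5′ UTRs, 59 in 3′ UTRs and 3 in exons of transcripts without a coding sequence. The 5′ UTR held 29.5% of exonic summits (95% interval 23.6 to 36.0%) and 2.39% of exonic bases outside the windows. The 3′ UTR held 26.8% of the summits (21.1 to 33.2%) and 10.9% of the bases. Coding sequence held 42.3% of the summits (35.7 to 49.1%) and 86.2% of the bases. Per Mb this came to 107 peaks in 5′ UTRs, 21.3 in 3′ UTRs and 4.25 in coding sequence. The 5′ UTR density was thus above that of the genome as a whole, and the 3′ UTR and coding densities were below it.

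**Figure D1:**
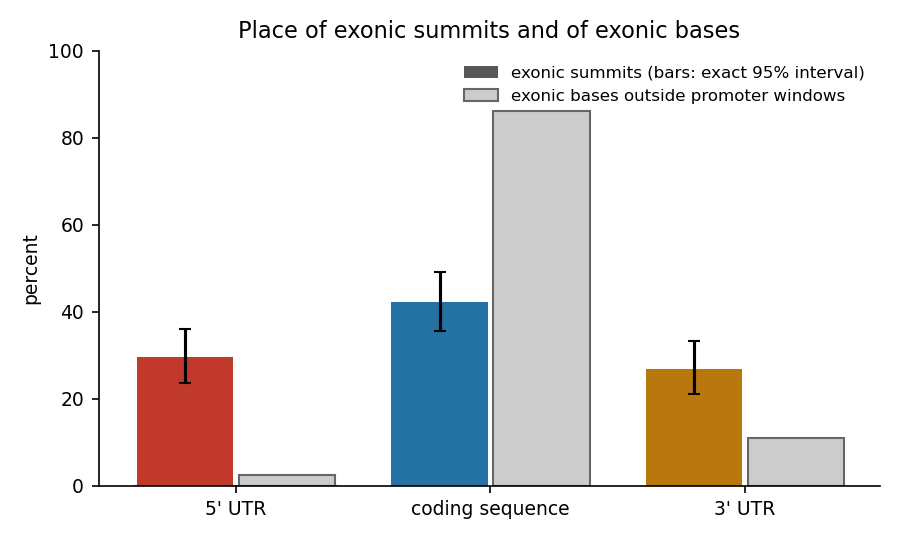
Share of the exonic summits (coloured bars, with exact 95% intervals) and of the exonic bases outside promoter windows (grey bars) that lay in 5′ UTRs, coding sequence and 3′ UTRs. The 5′ UTR held 29.5% of summits and 2.39% of bases, and coding sequence held 42.3% of summits and 86.2% of bases.

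The rule removed summits near the 5′ end of a gene, but it did not use the starts of other transcripts, whether of the host gene or of another protein-coding gene. Of the 220 exonic peaks, 47 (21.4%, 16.1 to 27.4%) lay in the same window around such another start. That share was 8.03% of all peaks outside promoters, 17.7% of intronic peaks and 5.01% of exonic bases outside the windows. The 8.03% takes in the intergenic peaks, which lie outside genes and of which 0 were in such a window. The intronic share was inside the exonic interval, so no difference from introns was detectable with these numbers. The summit was in a 5′ UTR for 35 of the 47, in coding sequence for 10, in a 3′ UTR for 1 and in a noncoding exon for 1. The 3′ UTR summit, in T28F4.8, lay 161 bp upstream of a start of another gene, T28F4.4. Among 5′ UTR summits the share was 53.8% (41.0 to 66.3%), and it was 41.8% of 5′ UTR bases, a value inside that interval. Among coding summits it was 10.8% (5.28 to 18.9%), and 4.49% of coding bases. With these 47 left out, the 5′ UTR share of exonic summits was 17.3% (30 of 173). The same windows also take out 41.8% of 5′ UTR bases, so the 2.39% base share does not apply to these 173. The fall in share is thus not a measure of how much other starts add. With a narrower promoter window, of 300 bp upstream and 100 bp downstream, 97 of 270 exonic peaks (35.9%) lay in a transcript-start window. That window was kept at 500 bp upstream and 200 bp downstream and took in the gene's own 5′ end. The higher share thus follows from the setting and does not show more peaks at other starts. More of the exonic peaks lay in genes with 2 or more transcript starts: 124 of 220 (56.4%, 49.5 to 63.0%), against 40.6% of exonic bases.

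The 5′ UTR peaks were dense also away from transcript starts. Within 200 bp of the nearest transcript 5′ end, 5′ UTRs held 144 peaks per Mb (97.3 to 206; 30 peaks). Beyond 200 and up to 500 bp they held 88.5 (53.3 to 138; 19 peaks), and beyond 500 and up to 1000 bp 89.7 (44.8 to 161; 11 peaks). Beyond 1000 and up to 2000 bp the value was 78.3 on 4 peaks, with a lower bound of 21.3. In coding sequence the densities in the same bands were 10.3, 4.89, 4.24 and 4.02 peaks per Mb, and 3.36 beyond 2000 bp. In 3′ UTRs the bands with more than 1 peak held 25.2 per Mb beyond 500 bp, 22.9 beyond 1000 bp and 17.8 beyond 2000 bp. In every band with at least 4 peaks of each kind, the 5′ UTR density was above that of coding sequence, and the intervals did not overlap.

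**Figure D2:**
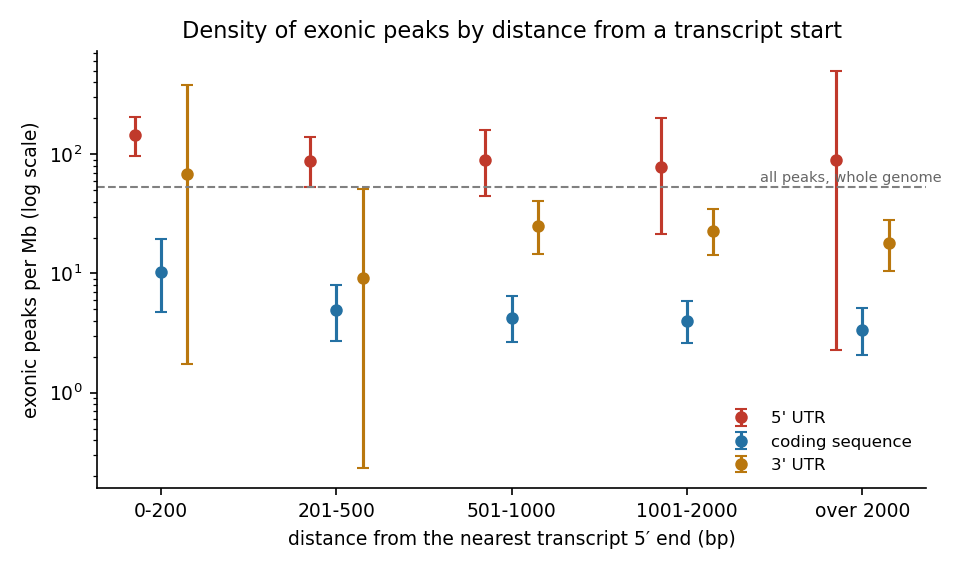
Exonic peaks per Mb of exonic sequence outside promoter windows (log axis) by distance from the nearest transcript 5′ end, with exact 95% intervals, for 5′ UTRs, coding sequence and 3′ UTRs. The dashed line is the density of all peaks over the whole genome (53.4 per Mb); 5′ UTR values lay at 78.3 to 144 and coding values at 3.36 to 10.3.

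Exonic peaks were weaker than peaks elsewhere. Their signal ranged from 77.1 to 2151, with a median of 116 and quartiles of 88.0 and 171, against a median of 156 over all peaks. The medians were 209 at promoters, 138 in intergenic sequence and 133 in introns. Among exonic peaks the 5′ UTR ones had a median of 138, close to the intergenic and intronic values, while coding ones had 108 and 3′ UTR ones 104. Of the exonic peaks 69 (31.4%, 25.3 to 37.9%) were among the upper 50% of all peaks by signal. This share was 40% for 5′ UTR peaks, 30.1% for coding peaks and 22% for 3′ UTR peaks, and 62.6% for promoter peaks.

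**Figure D3:**
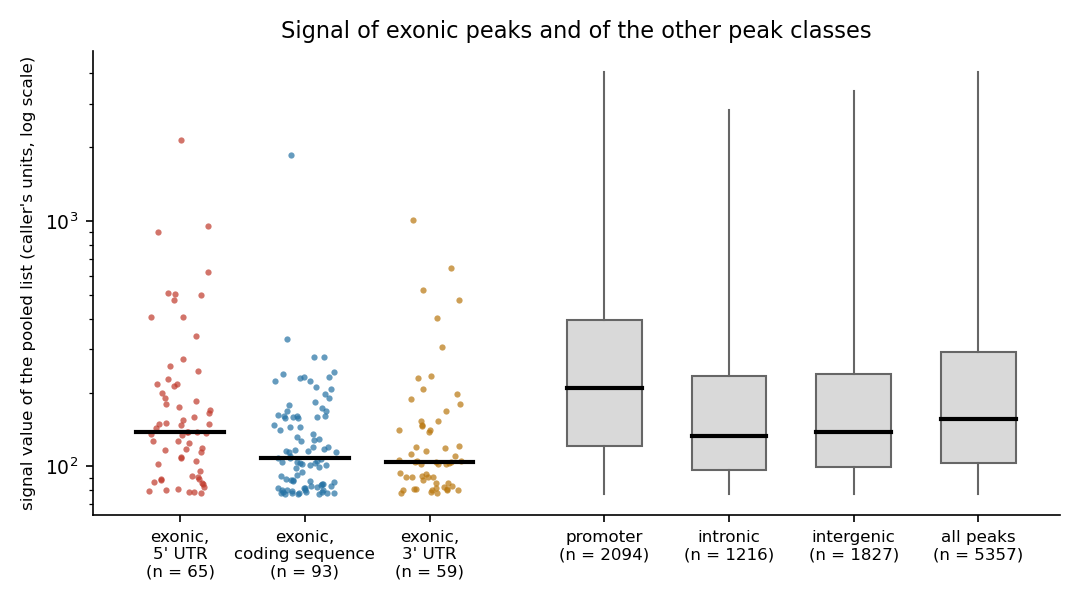
Signal of each exonic peak by the place of its summit (points, with the median as a bar), beside the promoter, intronic, intergenic and all peaks (box, quartiles; bar, median; line, range), on a log axis. The 3 exonic medians were 138, 108 and 104, against 209 for promoter peaks and 156 for all peaks; the 3 summits in noncoding exons are not drawn.

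The exonic share rose as the signal fell, and the place within exons moved with it. Exons held 7 of the 500 strongest peaks (1.40%), 9 of the next 500 (1.8%) and 84 of the 1357 weakest (6.19%). At ranks 5358 to 30000 by signal, the relaxed pooled list held 5078 exonic summits among 24643 regions (20.6%). The share reached 23.8% among the last 5000 ranks. This cut was by rank, and regions also in the thresholded list were not removed. The last value was close to the 25.3% of the genome that exons cover. The 5′ UTR held 57.1% of exonic summits among the first 500 ranks (4 of 7) and 20.2% among the 1357 weakest peaks. Over the last 5000 ranks of the relaxed list the 5′ UTR held 3.96%, the 3′ UTR 15.7% and coding sequence 79.8% of exonic summits, against 2.39%, 10.9% and 86.2% of exonic bases.

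**Figure D4:**
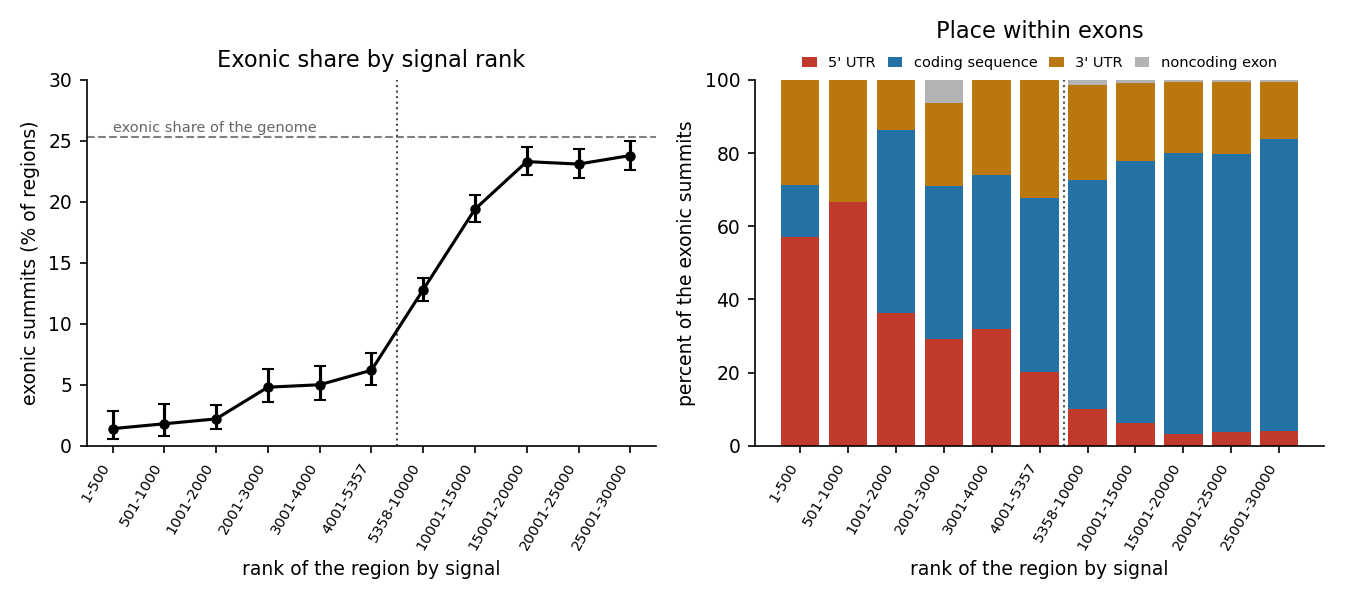
Left, share of regions with an exonic summit by rank of signal, with exact 95% intervals. The dashed line is the exonic share of the genome (25.3%). The dotted line parts the thresholded list, before it, from ranks 5358 to 30000 of the relaxed pooled list, after it. Right, the place of those summits within exons: the 5′ UTR share fell to 3.96% in the last band, against 57.1% among the first 500 ranks.

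All 220 exonic peaks had an overlapping region in both replicates, as did 5312 of all 5357 peaks. Each replicate list held 30000 regions, so such overlap was near complete for peaks of any class. A replicate value is the signal in that replicate relative to its median over the peaks that both replicates held. The exonic medians were 0.791 in replicate 1 and 0.776 in replicate 2, and 1 over all peaks in each. The replicates were within 2-fold of each other for 91.4% of exonic peaks, against 94.9% of all peaks. The SD of the log2 ratio between replicates was 0.58 for exonic peaks and 0.50 for all peaks. A total of 155 exonic peaks (70.5%, 64.0 to 76.4%) overlapped a region among the 5357 strongest of each replicate, against 81.1% of all peaks. This share was 83.1% for 5′ UTR peaks, 69.5% for 3′ UTR peaks and 61.3% for coding peaks. An overlap of 1 bp sufficed, so that region need not be the one that gave the replicate value. The members with the widest gap were weak: nra-1 had 0.256 and 1.15 in its 3′ UTR, and mxl-3, which encodes a Max-like basic helix-loop-helix protein, had 0.217 and 0.876. In replicate 1 the regions that gave these values ranked 13559 and 16828. Both peaks still counted in the 155, through another region that overlapped them. Above the median peak, mdt-26 (0.837 and 1.78) and mai-1 (1.69 and 0.838) also lay outside 2-fold.

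**Figure D5:**
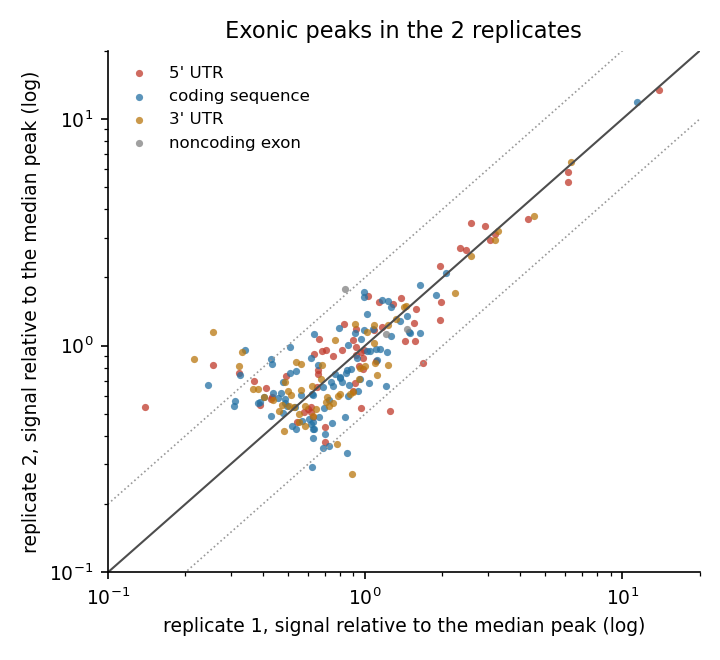
Signal of the 220 exonic peaks relative to the median peak in replicate 1 and replicate 2 (log axes), coloured by the place of the summit; the solid line marks equal values and the dotted lines a 2-fold difference. Of the 220, 91.4% lay within 2-fold, and the points outside had mean relative values of at most 1.31.

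The position of the summit was also compared between replicates. The summit of the replicate region lay a median of 17 bp from the pooled one in replicate 1 and 5 bp in replicate 2. It was exonic outside promoter windows in both replicates for 188 of 220 peaks (85.5%). In replicate 1 the exceptions were 18 intronic, 3 promoter and 1 intergenic summits, and in replicate 2 they were 7 intronic, 4 promoter and 1 intergenic. Coding peaks had both summits exonic in 77.4% of cases, 5′ UTR peaks in 87.7% and 3′ UTR peaks in 96.6%. The exon at the summit had a median length of 211 bp for coding peaks, 735 bp for 5′ UTR peaks and 530 bp for 3′ UTR peaks, so the coding exons were the shortest. Peak intervals had a median width of 420 bp, so many reached beyond the exon: 73 of 220 (33.2%) were wholly exonic, 191 were at least 50% exonic and 30 reached into a promoter window.

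The strongest exonic peaks were mostly in 5′ UTRs. Among the 25 strongest, 14 summits were in a 5′ UTR, 6 in a 3′ UTR and 5 in coding sequence, and 7 were in the window of another transcript start. All 25 were among the strongest 5357 regions of both replicates. The top one lay at III:3456216-3456668, in a first exon of 2829 bp of C34C12.2, with a signal of 2151, which ranked 28 of all peaks. Its relative signal was 13.9 in replicate 1 and 13.4 in replicate 2 (13.6 ± 0.388, SD, n = 2). The summit was 2643 bp from the 5′ end of the gene and 2084 bp from the nearest transcript start, that of C34C12.1. It was the only 5′ UTR peak more than 2000 bp from any transcript start.

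The peak that ranked second lay in coding sequence of pks-1, which encodes a large polyketide synthase needed for the nemamides, a class of hybrid metabolites. It was at X:5429275-5429833 in an internal exon of 202 bp, and its signal was 1860. Relative to the median peak it had 11.4 in replicate 1 and 11.9 in replicate 2. The summit was 15734 bp from the 5′ end of the gene and 15194 bp from any transcript start. The next coding peak, in suro-1, had a signal of 330 and relative values of 2.07 and 2.09.

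C05D11.8 held the strongest 3′ UTR peak, at III:6420974-6421460, with a signal of 1012 and relative values of 6.34 and 6.46. Its summit lay in a last exon of 1822 bp, 455 bp from the 3′ end of the gene. The gene agt-2, which encodes an alkylguanine DNA alkyltransferase that repairs alkylated bases, held a 5′ UTR peak at II:5373236-5373614. Its signal was 951, its relative values were 6.18 and 5.83, and the summit was 385 bp from the gene's 5′ end. Both summits lay outside the window of any annotated start.

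Among the strongest 14 were peaks in 3 genes of G-protein signalling, all on chromosome I. The gene egl-30, which encodes the Gq alpha subunit that drives neurotransmitter release and egg laying, held a 5′ UTR peak with relative values of 6.14 and 5.25. The summit lay 275 bp past one of its 3 transcript starts. The gene eat-16 encodes an RGS protein that dampens EGL-30 signalling, and its 3′ UTR peak had relative values of 4.55 and 3.74. For rsbp-1, which encodes a protein that binds RGS proteins, the 5′ UTR values were 2.34 and 2.70. Each of the 3 genes also had a promoter peak. They were noticed after their values were seen, and no list of such genes was fixed.

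Several strong 5′ UTR peaks lay beside the start of a shorter transcript. In srh-2, a member of a family of serpentine chemoreceptors, the summit was 96 bp past one of 7 transcript starts, and the relative values were 2.92 and 3.36. In tent-5, which encodes a terminal nucleotidyltransferase, it was 108 bp past another start, with values of 2.58 and 3.49. In gldi-8 it was 40 bp past one, with values of 3.20 and 3.12, and in M01H9.3 it was 11 bp past one, with values of 1.95 and 1.30. Upstream of other starts lay T28F4.5 (217 bp; values of 4.31 and 3.63) and fbxl-1 (85 bp; values of 1.38 and 1.63). In unc-33, which encodes a CRMP-family protein needed for axon guidance, the coding summit, whose sequence is printed, was 98 bp upstream of another start, with values of 1.88 and 1.67. The other 5′ UTR peaks of the 25, at no such start, were those of F21C10.3, ZK484.6, F53F10.2 and unc-62, with signals of 475, 406, 341 and 273.

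The 3′ UTR summits were close to gene ends, where 3′ UTRs lie by definition. No distance for 3′ UTR bases in general is set beside theirs. Their median distance from the gene's 3′ end was 157 bp, with quartiles of 89.5 and 346.5 bp. The peak of hsp-12.3, a small heat shock protein gene, lay 23 bp from the end and had relative values of 3.28 and 3.20. That of slc-25A46, of the mitochondrial carrier family, lay 75 bp from the end with values of 2.59 and 2.48, and that of the homeobox gene ceh-8 lay 111 bp from it with values of 3.19 and 2.94. The peak of cept-2, which encodes a choline or ethanolamine phosphotransferase, lay 320 bp from the end and 547 bp upstream of vha-13, a subunit gene of the vacuolar proton pump. Of the 59 peaks, 10 (16.9%, 8.44 to 29.0%) lay beyond 500 and within 1000 bp upstream of the 5′ end of a gene, and 14.3% of 3′ UTR bases did. The share was inside the interval, so no excess upstream of a following gene was detectable with these numbers.

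The remaining coding peaks of the strongest 25 were those of cpz-1, a cathepsin Z-like protease gene, and C17G10.6, with signals of 279 and 242. The coding summits were spread over the gene, with a median position at 68.7% of its length, and the 5′ UTR summits had a median of 27.1% and the 3′ UTR ones 94.9%. The summit was in a first exon of some transcript for 75 exonic peaks (34.1%), in a last exon for 90 (40.9%) and in neither for 58 (26.4%). Such positions depend on where each kind of sequence lies in a gene. No values for exonic bases are set beside them.

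Host genes carried a promoter peak more often than protein-coding genes as a whole. Of 213 host genes, 51 (23.9%, 18.4 to 30.3%) had another summit in their own promoter window, against 12.8% of all 19973 protein-coding genes. By place this applied to 35.6% of 3′ UTR peaks (23.6 to 49.1%), 26.2% of 5′ UTR peaks (16 to 38.5%) and 15.1% of coding peaks (8.48 to 24.0%). The gene mutated in the strain, unc-119, was itself a host, with a weak coding peak at III:10906274-10906693. The signal was 84.3, with relative values of 0.404 and 0.596. The summit lay 28 bp past another start of the gene, and 17.6% of the interval was exonic. This gene was singled out after its values were seen. Host genes were also longer, with a median of 4297 bp against 2027 bp over all protein-coding genes, and the part of length in the difference was not tested.

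Exonic peaks came in pairs in 7 genes. In unc-62, a Meis-type homeodomain gene with 15 transcript starts, both summits were in the 5′ UTR, 199 bp apart, with signals of 273 and 105. In dmd-7, a DM-domain gene, they were 202 bp apart in a 5′ UTR exon of 2360 bp, with signals of 216 and 79.8. In F46C5.1 one summit was in coding sequence and one in the 3′ UTR, 211 bp apart, with signals of 81.4 and 146. Such close summits come from adjoining or overlapping intervals and are not separate measurements. In tent-5 the second peak was in the 3′ UTR, 99 bp from the gene's end, with a signal of 91.1 against 502 for the first. The gene mbk-2, which encodes a DYRK-family kinase, held a 5′ UTR peak 44 bp past another start (signal 119) and a coding peak (98.9). The other pairs were in W06H8.6 (239 in coding sequence and 90.5 in a 3′ UTR) and Y37F4.1 (138 and 79.1, both in 5′ UTRs).

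The nuclear hormone receptor family itself gave 7 host genes of 274 (2.55%), each with 1 peak, against 1.07% of all protein-coding genes. No interval was computed for this share, which rests on 7 genes and is 1 of 20 lists. It is not read as an excess. A promoter peak was present at 34 of the 274 (12.4%), against 12.8% of all protein-coding genes. Signals are given in parentheses here and for the other lists. The strongest was the coding peak of nhr-40, with a signal of 173 and relative values of 0.994 and 1.17. In nhr-34 (161) the coding summit was 13 bp past another transcript start, in nhr-21 (138) the 5′ UTR summit was 49 bp past one, and in nhr-1 (137) it was 17 bp past one. The 5′ UTR summit of nhr-66 (127) was 78 bp upstream of another start. The coding peaks of nhr-237 (120) and nhr-28 (87.9) were at none. All 7 were near or below the median peak, with mean relative values from 0.521 to 1.08.

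The other lists were made from gene symbols, mostly by their first letters, so each holds part of its family. They held 0 to 3 host genes each, and 1.07% of all protein-coding genes were hosts. No exonic peak lay in the 81 ribosomal protein genes or the 81 histone genes, which allows up to 3.70% in each list, while 66 of the ribosomal protein genes (81.5%) had a promoter peak, against 12.8% of all protein-coding genes. None lay in the 322 listed F-box genes with symbols in fbxa, fbxb or fbxc (up to 0.932%), the 96 listed ubiquitin and proteasome genes (3.12%), the 72 listed small GTPase and signalling kinase genes (4.17%) or the 63 listed splicing and RNA-binding genes (4.76%). The same held for 40 genes of oxidative phosphorylation (7.50%), 31 muscle genes and 31 major sperm protein genes (9.68% each). These limits take 3 counts of the total and are tighter than the exact intervals given for other shares. Only the F-box limit was below 1.07%, and narrowly so. No zero is thus read as a share below that of all protein-coding genes. These zeros hold for the listed genes and not for the families. Outside the lists, hosts included the F-box gene fbxl-1 (244), the kinase genes lin-45 (143), lit-1 (127) and unc-43 (85.0), the deubiquitinase gene math-33 (90.8) and the Sm-like splicing factor genes lsm-7 (118) and lsm-3 (91.2).

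Of 1308 chemoreceptor genes, 3 were hosts (0.229%), against 1.07% of all protein-coding genes. They were srh-2, srd-70 in a noncoding exon (signal 186) and str-260 in coding sequence (105). Ion channel and neurotransmitter receptor genes gave 3 of 184 (1.63%). These were the muscarinic receptor gene gar-2, with a 5′ UTR summit 52 bp past another start (148), the potassium channel gene exp-2 (88.8), 121 bp upstream of one, and twk-13, a K2P-family potassium channel gene, in its 3′ UTR (77.9). Heat shock and chaperone genes gave 2 of 59, hsp-12.3 and dnj-20 (78.0). Cuticle collagen genes gave 2 of 171, dpy-8 in coding sequence (99.6) and col-186 in its 3′ UTR (90.4). C-type lectin genes gave 2 of 240, clec-221 (145) and clec-264 (115), both in coding sequence.

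The lists of regulatory genes held 1 or 2 host genes each, to be read beside the 1.07% of all protein-coding genes. The listed zinc finger and other transcription factor genes gave 2 of 88, the forkhead gene fkh-7 in a noncoding exon (203) and mxl-3 (102). The listed homeodomain, basic helix-loop-helix and T-box genes gave 1 of 125, ceh-8. Transcription factor hosts outside these lists included the homeodomain gene unc-62, dmd-7, the CREB gene crh-1 (165), the MADS-box gene mef-2 (111) and the ETS gene ast-1 (91.5), so the counts are not those of the families. Translation factors gave 1 of 39, iff-2, an eIF5A gene, 4 bp from the gene's end (94.0). Chromatin modifiers gave 1 of 77, jmjd-3.1, a histone H3K27 demethylase gene (124, in a 5′ UTR). Argonaute and small RNA genes gave 1 of 35, alg-1, which encodes the Argonaute of the microRNA pathway. Its 5′ UTR summit lay 332 bp upstream of another start, with relative values of 1.09 and 1.17. Of the summits, 8 also lay in a noncoding RNA gene, and the strongest 6 of these hosts were ceh-8, C17G10.6, din-1, W02G9.3, W01C8.5 and Y38F2AL.12.

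The sequence at exonic summits was read in the 50 bp to each side of it, on either strand. GACGCA, a sequence taken from earlier work on the same peaks, was present at 19 of 220 exonic summits (8.64%, 5.28 to 13.2%), and at 14.6% of all peaks and 17.6% of promoter peaks. It was in 2.73% of windows 300 bp to either side of the exonic summits and in 2.01% of windows centred on exonic bases. By place, it was at 13 of 65 5′ UTR summits (20%), 4 of 59 3′ UTR summits (6.78%) and 2 of 93 coding summits (2.15%). The same windows over all 5′ UTR, 3′ UTR and coding bases held it in 2.57%, 1.09% and 2.11%, so coding summits were at the level of coding sequence in general. The match was a median of 17 bp from the summit, and with 100 bp to each side 13.2% of exonic summits held it. Among the 25 strongest, 5 held it: C05D11.8, agt-2, egl-30, eat-16 and tent-5. Weaker ones included din-1, a corepressor gene of the DAF-12 receptor pathway (217), alg-1 (184), nhr-66 (127) and dpy-8 (99.6).

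The nuclear receptor half-site AGGTCA was at 6 exonic summits (2.73%, 1.01 to 5.84%), against 2.67% of all peaks, 2.27% of flanking windows and 2.09% of windows on exonic bases. These were level within counting error, and 0 of the 25 strongest exonic peaks held it. With 25 bp to each side the share was 0.909% (2 peaks). The strongest of the 6 was the coding peak of ril-2 (210). The repeat GAGAGA was at 38 summits (17.3%, 12.5 to 22.9%), against 25.1% of all peaks, 7.73% of flanks and 5.55% of exonic windows. It was at 32.3% of 5′ UTR summits, 15.3% of 3′ UTR summits and 8.60% of coding summits, and in 7.65%, 7.12% and 5.30% of windows on the bases of those kinds.

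Sequences that mark gene structure were no commoner at the summits than beside them. Summits are in exons by the rule, and the flanks, 300 bp away, were not limited to exons. The flanks may thus differ in kind of sequence, and windows on exonic bases are the closer comparison. TTTCAG, the consensus at the end of worm introns, was at 10.9% of exonic summits, 21.8% of flanks, 18.3% of exonic windows and 7.88% of all peaks. AATAAA was at 16.4% of summits, 23.0% of flanks, 14.5% of exonic windows and 14.3% of all peaks. In 3′ UTRs it was at 32.2% of summits and in 40.7% of windows on 3′ UTR bases. The GATA site TGATAA was at 7.73% of summits, 8.64% of flanks, 9.49% of exonic windows and 5.94% of all peaks. The E-box CACGTG was at 3.64% of summits (1.58 to 7.04%), 2.73% of flanks, 2.32% of exonic windows and 5.39% of all peaks. By place the E-box was at 4 5′ UTR summits (6.15%), 3 3′ UTR summits (5.08%) and 1 coding summit (1.08%). Windows on the bases of those kinds held it in 2.04%, 1.28% and 2.46%. These 6-base matches describe the letters in a window and are not binding sites by themselves.

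Base composition moved with the place of the summit. The median GC content of the same windows was 41.6% at exonic summits, against 45.5% at all peaks and 39.6% in windows on exonic bases. It was 47.5% at 5′ UTR summits against 35.6% for 5′ UTR bases, and 37.6% at 3′ UTR summits against 30.7% for 3′ UTR bases. At coding summits it was 41.6% against 40.6% for coding bases. The part of GC content in the peak densities was not tested, and the control library's coverage was not analysed here.

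Exonic peaks were spread over all 6 chromosomes, with 33 to 43 on each. The X chromosome held 43 (19.5%, 14.5 to 25.4%), against 20.5% of all peaks and 15.4% of exonic bases outside the windows. Per Mb of such bases the counts ran from 6.54 on V to 11 on X. Among the 25 strongest, 1 lay on X, that of pks-1. On autosomes the exonic share of each chromosome's peaks was 3.96% to 4.32%, and on X it was 3.91%.

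The edges of the promoter window decide which summits counted as exonic. Just outside the downstream edge were K10B3.5, 202 bp from the gene's 5′ end with a signal of 228, and mdt-26, at 204 bp with 141. Just inside were gpd-3 at 197 bp with 91.5 and Y43B11AR.3 at 195 bp with 83.6. On the upstream side the nearest exonic peaks were those of dcn-1, 525 bp upstream of tag-131 (121), and cept-2, 547 bp upstream of vha-13 (308). Just inside lay lem-4, 494 bp upstream of Y55F3BR.11 (82.3), and C17E4.6, 491 bp upstream of nkb-1 (81.9). In all, 192 summits lay in an exon but within a promoter window, with a median signal of 131.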

How the data were processed

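The data were 2 biological replicates of anti-GFP ChIP-seq from whole L1 larvae, in 1 group, deposited as region lists in the narrowPeak layout. The authors called regions against a control for each replicate and for both pooled, and kept 5357 by the optimal IDR (irreproducible discovery rate) rule, as the submitters' file index says. Neither the aligner nor the caller, nor any version or IDR cutoff, is given in the sources used here. The signal in column 7 of the deposited lists is the caller's and rises with depth. Column 9 of the authors' lists is −log10 of a q-value, and column 10 the summit's offset from the start. The IDR rule and the caller set which weak peaks are listed, so counts near the threshold depend on both. There were 0 unused per-sample columns. The ce10 lists were not used beyond a count of 5358 thresholded peaks, and no coordinates were converted.

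Summits were classed against WBcel235 and Ensembl release 115, in the order promoter window, exon, intron and intergenic. Exonic summits were then classed as coding, 5′ UTR, 3′ UTR or noncoding exon, in that order over all transcripts. Each replicate value came from the region with the nearest summit among those overlapping by 1 bp or more. Background shares were counted over every exonic base outside the windows. Intervals are exact Clopper-Pearson 95% intervals, or exact Poisson ones for densities, and a count of 0 allows 3 counts of the total. No test between conditions was possible. The members, 20 gene lists, 7 motifs and alternatives were chosen with earlier results of these data known.

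Named genes are hosts of the 25 strongest exonic peaks, genes with 2 or more exonic peaks, up to 4 hosts per list (all 7 for nuclear receptors), the peaks nearest each window edge, up to 6 hosts with a noncoding gene at the summit, and nhr-47. The genes nra-1, ril-2, alg-1, nhr-66 and dpy-8 in the replicate and motif paragraphs were picked after their values were seen, where not named by the rule, as were nhr-237, nhr-28, mai-1 and the hosts given as outside the gene lists, which cover only the gene symbols they were made from. The classification was tested on simulated data and recovered 2200 of 2200 made-up positions. Python 3.11.15, NumPy 2.4.6, pandas 2.3.3, SciPy 1.17.1 and matplotlib 3.10.9 were used.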

Additional observations from a re-analysis of the deposited data

How the results depend on the processing

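The 13 main results were recomputed under up to 14 alternatives. Of 136 values 124 were counted as unchanged, 12 as moved and 0 as reversed. The limit for the number of exonic peaks was wider than counting error. Against 220 in the main setting, 270, 173 and 170 were counted as unchanged. These were 5.04%, 3.23% and 3.17% of the list, against 4.11%. A promoter window of 300 bp upstream to 100 bp downstream gave 270 exonic peaks. Of these, 35.9% lay in a transcript-start window, and 33.6% of the host genes had a promoter peak. Both measures kept the window of 500 bp upstream to 200 bp downstream, so an added exonic summit could itself count in each. The 2 higher shares follow at least in part from that choice. Leaving out the windows of every transcript start left 173 exonic peaks, and the 3′ UTR share became 33.5% and the 5′ UTR share 17.3%. In the stronger 50% of the list 69 exonic peaks remained, with a median signal of 217, a 5′ UTR share of 37.7%, a 3′ UTR share of 18.8% and 100% in the top set of both replicates; the signal and top-set values follow from that choice. Coding sequence alone gave 93. GACGCA was at 13.2% of summits with 100 bp to each side of the summit, and AGGTCA at 0.909% with 25 bp to each side. Other settings gave 170 to 243 exonic peaks; replicate 1 alone gave 243 and replicate 2 alone 237. Keeping only peaks with both replicate summits in exons (188), or only intervals that reach no promoter window (190), and every alternative for the 5′ UTR share were chosen after seeing the data. The share at another start with those starts excluded, and the share above the median within the stronger 50%, are fixed by construction and were not run. No paired analysis was possible because there was 1 group. The unknown depth limits what the weak end of the list can show.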
